A study of Mus musculus with 106 samples.

Results

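The acute phase proteins described here are 10 secreted plasma proteins, encoded in the mouse by Orm1, Orm2, Saa1, Saa2, Saa3, Hp, Lrg1, Serpina3n, Fgb and Crp. They were taken by symbol, 10 of the 20202 genes that all 4 count tables list, and were followed by bulk RNA-seq in 11 tissues of male C57BL/6J mice kept at 10 °C, 22 °C or 34 °C. The series holds 106 libraries in 31 groups. In the cold experiment, mice aged 8 weeks at the start spent 5 days at 18 °C, 5 days at 14 °C and then 2 weeks at 10 °C, beside controls left at 22 °C. In the warm experiment, other mice spent 4 weeks at 34 °C beside 22 °C controls of their own. The labels name no transgene, mutation or drug in any group. The labels give an age of 11 weeks for the cold experiment and of 12 weeks for the warm one and for all quadriceps muscle. Tissues of the cold experiment were interscapular brown fat (iBAT), inguinal subcutaneous fat (ingSAT), perigonadal visceral fat (pgVAT), liver, ileum, spleen, brain, hypothalamus, spinal cord, bone marrow and quadriceps muscle. Of the warm experiment, iBAT, liver, ileum, brain and quadriceps were compared, while ingSAT and pgVAT at 34 °C were not analysed here. Groups held 3 libraries, except 6 in bone marrow, 5 in spinal cord and 6 in the quadriceps controls, which served both temperatures. Most libraries pooled 2 mice. Bone marrow, spinal cord and most iBAT libraries of the warm experiment came from single mice. Mice were housed 2 per cage and were bought from different breeders for the cold and the warm experiment, and the cold libraries of the fats, liver, gut, spleen and brain regions were made at another site and with another kit than the warm ones. Levels of the 2 experiments therefore cannot be compared directly, and each exposed group is set against the 22 °C libraries of its own experiment, except in quadriceps, where the labels do not divide the 6 controls between the experiments.

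The acute phase response is the change in plasma proteins that follows infection or injury. Interleukin 6 signals through the receptor chain gp130 and the transcription factor STAT3, and interleukin 1 signals through NF-kappaB and C/EBP factors, and together they switch on positive acute phase genes in hepatocytes while albumin and other negative acute phase proteins fall. Many of these genes are also transcribed outside the liver: haptoglobin and orosomucoid in fat cells, serum amyloid A in the gut and in inflamed fat, Lrg1 in maturing neutrophils and Serpina3n in astrocytes and oligodendrocytes.

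Library depth ran from 4262403 to 62880248 assigned reads, with a median of 21585677. Levels are given in CPM, a count scaled to the library's total of assigned reads after TMM, a correction for differences in RNA composition. A gene was tested where its mean log2 CPM was above 0, and it was called where the unadjusted p of edgeR was at most 0.05 and the fold above 1.5, the form of threshold used for this series. The p adjusted over all genes of the comparison is given with the calls. Markers of the labelled tissue were high in every library of liver, quadriceps and iBAT. Summed over the list, hepatocyte markers reached at least 66403 CPM in every liver library. Skeletal muscle markers reached at least 121520.0 CPM in every quadriceps library, and brown adipocyte markers at least 4640.0 CPM in every iBAT library. Several libraries stood apart. The brain library of 22 °C replicate 2 in the cold experiment held liver RNA, with Alb at 37865 CPM, and was left out, so that 2 brain controls remain. Of the spinal cord, 22 °C library 1 and 10 °C library 3 held hepatocyte RNA, with marker sums of 342 and 106 CPM against 2.08 to 2.83 CPM in the others, and leaving both out changed no call of a member. The 10 °C replicate 3 of the hypothalamus had a hepatocyte sum of 164 CPM against 4.64 to 27.998 CPM in the other 5 libraries. The iBAT controls of the cold experiment had hepatocyte sums of 49.995 to 88.2 CPM, against 5.66 to 6.23 CPM at 10 °C. Brown adipocyte markers summed to 445 CPM in 22 °C replicate 3 of pgVAT, against 14.03 to 33.7 CPM in the other 5 libraries, and in 22 °C replicate 3 of the liver Ucp1, the uncoupling protein of brown fat, stood at 77.9 CPM and the adipocyte markers at 109 CPM, against 0.982 to 14.1 and 18.2 to 46.5 CPM in the other 5. Leaving out either library changed no call of a member. In pgVAT, 10 °C replicates 1 and 3 held epididymis RNA, with marker sums of 15352 and 16996 CPM against 2.81 CPM in replicate 2 and 537 to 2517 CPM in the controls.

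Orm1 lies at chr4:63344560-63348163 and Orm2 at chr4:63362449-63365878 on the plus strand of mm10 (GRCm38), with the other family member Orm3 between them. The serum amyloid A genes form a cluster on chromosome 7, with Saa3 at chr7:46711998-46715700 and Saa1 at chr7:46740497-46742980 on the minus strand and Saa2 at chr7:46751790-46754313 on the plus strand. The other members stand alone, Hp at chr8:109575128-109579172, Lrg1 at chr17:56119678-56122001 and Fgb at chr3:83040141-83049863 on the minus strand, Serpina3n at chr12:104406729-104414329 and Crp at chr1:172698055-172833031 on the plus strand. Short reads cannot always separate the copies. Of all 50-base words in the transcripts of Orm1, 20.4% also occur in Orm2, and 31.1% of those of Saa1 occur in Saa2, so reads from the shared stretches could be lost or, with mismatches, moved between copies. For Serpina3n the share found in any other gene was 6.9%, and for Hp, Lrg1 and Fgb it was 0.

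The stretches just upstream of 4 start sites are shown because Orm2 and Orm3 rose together in iBAT at 10 °C, and Lrg1 and Serpina3n fell together in ingSAT. They are RefSeq sequences of GRCm38.p6, written 5′ to 3′ on the strand of the gene and ending before the RefSeq start, or before the GENCODE gene where that starts earlier. Capitals mark matches to TTNNGNAA, the core of a C/EBP site, on either strand; TTCNNNGAA, the core of a STAT3 site, was searched in the same way and had no match in these 4.
Orm2, chr4:63362199-63362448: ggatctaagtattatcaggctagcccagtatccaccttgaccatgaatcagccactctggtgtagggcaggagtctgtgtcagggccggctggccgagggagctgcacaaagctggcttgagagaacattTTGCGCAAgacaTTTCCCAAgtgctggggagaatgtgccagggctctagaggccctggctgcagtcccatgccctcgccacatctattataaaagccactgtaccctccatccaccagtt
Orm3, chr4:63355908-63356157: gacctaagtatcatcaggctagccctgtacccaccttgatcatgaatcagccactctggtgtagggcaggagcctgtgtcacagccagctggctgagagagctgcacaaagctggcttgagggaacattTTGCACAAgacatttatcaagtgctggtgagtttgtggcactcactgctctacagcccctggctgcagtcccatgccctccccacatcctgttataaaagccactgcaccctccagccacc
Lrg1, chr17:56122002-56122196, minus strand: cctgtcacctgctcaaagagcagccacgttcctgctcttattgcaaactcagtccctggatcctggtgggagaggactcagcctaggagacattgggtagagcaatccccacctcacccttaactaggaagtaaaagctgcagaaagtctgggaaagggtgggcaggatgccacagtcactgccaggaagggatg
Serpina3n, chr12:104406458-104406707: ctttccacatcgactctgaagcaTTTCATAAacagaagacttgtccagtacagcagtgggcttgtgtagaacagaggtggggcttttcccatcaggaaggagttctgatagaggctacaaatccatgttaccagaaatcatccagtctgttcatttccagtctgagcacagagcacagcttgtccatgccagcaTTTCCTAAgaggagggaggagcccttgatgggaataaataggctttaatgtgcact
The Orm2 and Orm3 stretches were identical at 85.9% of 255 aligned columns and both held a C/EBP match that begins 120 or 121 bases before the RefSeq start. Those of Lrg1 and Serpina3n were identical at 49.8% of 255 aligned columns. A promoter was at hand for 8 of the 10 members, all but Orm1 and Hp. Over the 250 bases before the RefSeq start, 7 of the 8 held TTNNGNAA, which 36.8% of all 32851 promoters of that length hold, and Lrg1 did not. Fgb alone held TTCNNNGAA, found in 7.02% of all promoters. Saa3 and Serpina3n held GGNNTTTCC, the core of an NF-kappaB site, found in 4.93%. A match describes letters only, and bases of one motif may overlap another.

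At 22 °C the members fell into 3 patterns across the 11 tissues, by the controls of the cold experiment and, for quadriceps, the controls shared by both experiments. Bone marrow, spinal cord and quadriceps libraries were made at another site and with another kit than those of the other tissues. TMM was applied within each comparison, not across tissues. The places of these 3 tissues in the orders below could in part reflect site and kit, which was not tested. Fgb, the beta chain of the clotting protein fibrinogen, Crp, a pentraxin that in mice responds only weakly to inflammation, and Saa2, an apolipoprotein of high density lipoprotein, were liver genes. Fgb had 4979 CPM in liver (range 3413 to 6776) and 4.20 CPM in iBAT, the next tissue. Crp had 269.9 CPM in liver (range 238 to 297) and at most 0.616 CPM, in pgVAT, elsewhere. Saa2 had 44.1 CPM in liver, but with a range of 3.56 to 122 CPM, and at most 0.334 CPM elsewhere. For these 3 genes the liver range did not overlap that of any other tissue.

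Saa1, the close copy of Saa2, was shared by gut and liver. It had 117 CPM in ileum (range 62.3 to 189.5) and 110.4 CPM in liver (range 17.9 to 288), and these ranges overlapped, while every other tissue stood at 0.206 CPM or less. Saa3, the serum amyloid A made mainly outside the liver, was highest in pgVAT at 8.48 CPM (range 6.52 to 10.8), above ileum at 3.29, liver at 2.66 and ingSAT at 1.1404 CPM, and these last 3 ranges overlapped from each to the next. Orm2 was highest in liver at 9.44 CPM (range 4.94 to 17.0), which overlapped spleen at 4.46 CPM (range 4.06 to 5.23), and ingSAT followed at 1.88 CPM.

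Hp, Lrg1, Orm1 and Serpina3n were transcribed widely , and the white fat levels of Hp, Lrg1 and Serpina3n reached into the liver range, while those of Orm1 did not. Hp, encoding haptoglobin, the binder of free hemoglobin, had 2819 CPM in liver (range 1799.9 to 4469.6), 2585 CPM in pgVAT (range 1932 to 3311) and 1926 CPM in ingSAT (range 1445 to 2446), 3 ranges that overlapped from each to the next. Bone marrow at 861 and iBAT at 696 CPM came next, then spleen at 36.2 and quadriceps at 24.2 CPM, and the remaining 4 tissues had at most 2.70 CPM. Lrg1, a leucine-rich glycoprotein also stored in neutrophil granules, followed the same order down to quadriceps, with 302 CPM in liver, 236 in pgVAT, 211 in ingSAT, 143 in bone marrow, 53.7 in iBAT, 20.9 in spleen and 11.9 CPM in quadriceps. From ingSAT down to quadriceps no Lrg1 range overlapped the next one, although bone marrow and quadriceps came from another site and kit. Orm1, alpha-1-acid glycoprotein, which carries lipophilic compounds in plasma, ran from 558 CPM in liver through 143 in ingSAT, 74.2 in pgVAT and 61.1 in iBAT to 21.9 CPM in bone marrow, and only pgVAT and iBAT overlapped among these. Serpina3n, an inhibitor of serine proteases, had 261 CPM in liver, 244 in ingSAT and 238 CPM in pgVAT, all overlapping, and was the one member with a clear level in nervous tissue, at 63.3 CPM in spinal cord, 30.5 in hypothalamus and 17.6 CPM in brain.

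**Figure D1:**
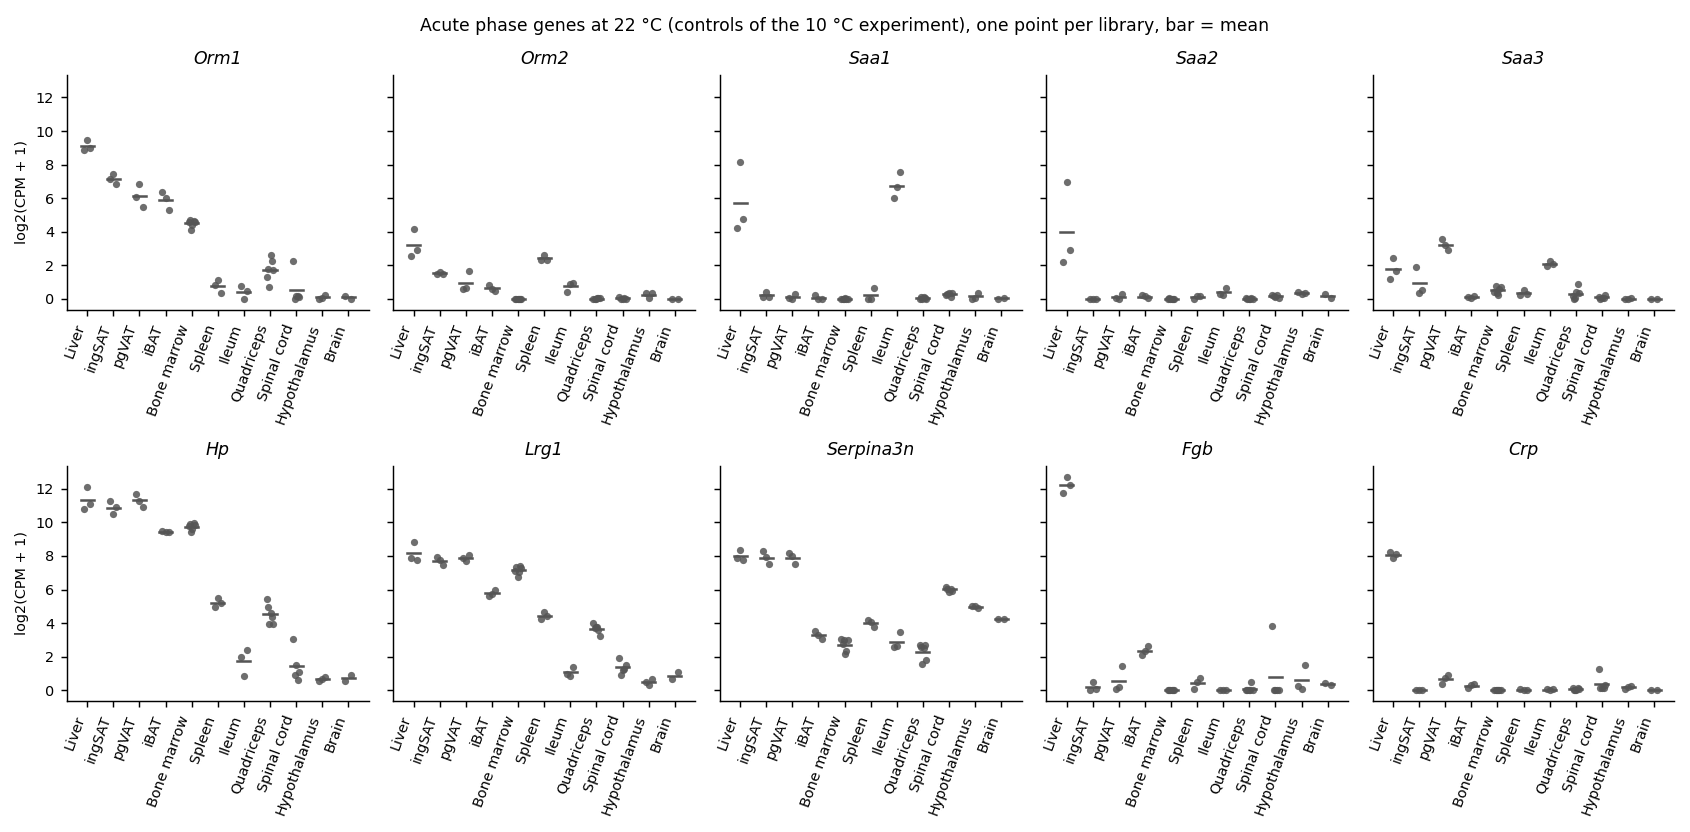
Level of the 10 genes at 22 °C in the 11 tissues, as log2(CPM + 1), with 1 point per library and a bar at the mean of the points. Bone marrow, spinal cord and quadriceps libraries came from another site and kit than the rest. Fgb, Crp and Saa2 are highest in liver, Saa1 in liver and ileum, and Hp, Lrg1 and Orm1 also in the 3 fats and in bone marrow; the raised spinal cord point of Fgb, Orm1 and Hp is the library with hepatocyte RNA.

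Per kilobase of the longest coding transcript, Hp led the members in liver at 22 °C in both experiments, with 2096 ± 1073 CPM per kb among the cold controls and 2217 ± 121 among the warm controls (SD, n = 3). Fgb followed Hp at 1307 ± 444 CPM per kb and Orm1 was next at 719.9 ± 180.2 among the cold controls, while among the warm controls Orm1 at 1087 ± 175 and Fgb at 1035 ± 79.3 were close. Lrg1 and Saa1 had 215 ± 97.1 and 181 ± 252 CPM per kb, Crp 159 ± 17.4 and Serpina3n 126 ± 30.8, and Orm2 at 12.2 ± 8.48 and Saa3 at 1.21 ± 0.735 were the lowest among the cold controls. Orm1 RNA thus far outnumbered that of its neighbour Orm2, within the limit that their shared stretches set.

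Over the 16 group means of the 8 tissues sequenced together, and among 17378 genes, the gene whose pattern was most like that of Hp was Lrg1 (Pearson r = 0.983, on log2(mean CPM + 1)), and the gene most like Lrg1 was Hp. Mmp19 and Dhrs3 were next for Hp, and H6pd and Igf1 for Lrg1. Orm1 was most like Sod1, Gstk1 and Pxmp4, and Serpina3n most like Gstt1 and Lbp. For the liver genes the nearest were other liver genes, Mug1, Ahsg and Hpx for Fgb, Uroc1, Igfbp1 and Cyp7a1 for Crp and Cyp3a59, Mup13 and Bhmt for Saa2. Saa1 was most like Xkr9, Nr1i2 and Abcg8, Orm2 most like Agtr1a, Hhex and Kmo (r = 0.952 for the first), and Saa3 most like Pkhd1, Sult1c2 and Surf4 (r = 0.923 for the first). The points share libraries of the same tissue, so these values describe tissue patterns and carry no test.

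Of the 160 pairs of a member and a comparison, 80 passed the filter on low values and were tested. Of the other 80 pairs, 35 had at most 3 counts in every library. In the cold, 14 of 54 tested pairs were called, 5 higher and 9 lower, and 11 of these 14 also had an adjusted p under 0.05. They lay in 7 of 11 tissues. The shares of all genes called in the 11 cold comparisons ran from 0.271% to 16.3%. At 34 °C, 3 of 26 tested pairs were called, all lower and none with an adjusted p under 0.05, in 3 of 5 tissues, where 0.193% to 19.4% of all genes were called. The calls of the cold experiment that held after adjustment were in iBAT, ingSAT, bone marrow and spleen.

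**Figure D2:**
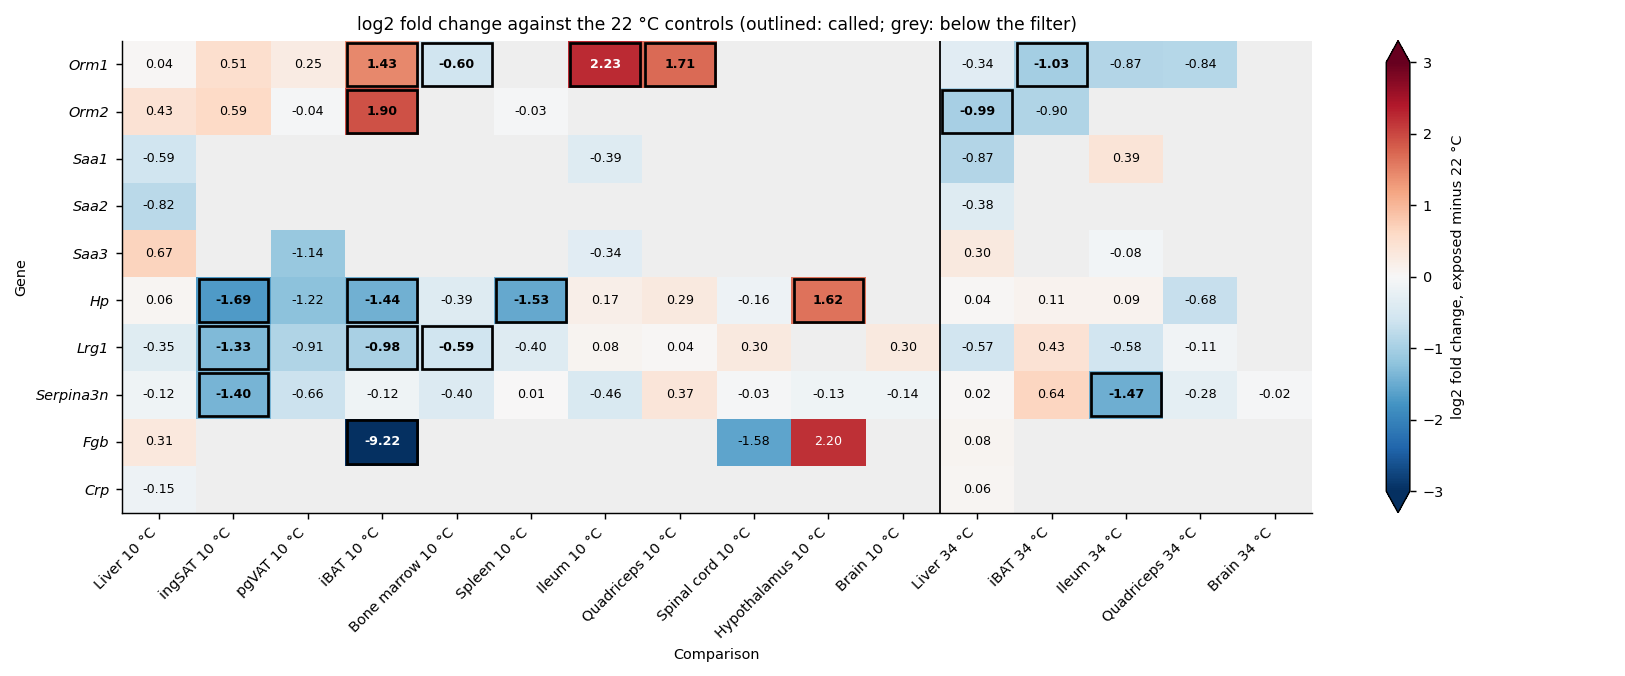
Log2 fold change of each gene (rows) against the 22 °C controls in each comparison (columns, cold left of the line and 34 °C right of it), with colours that saturate at the ends of the scale. Outlined cells were called and grey cells lay below the filter on low values; Hp and Lrg1 fell together in iBAT and ingSAT while Orm1 rose in iBAT.

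Brown fat at 10 °C held the most calls, in opposite directions. The orosomucoid genes rose and haptoglobin and Lrg1 fell, and fibrinogen beta RNA fell together with other hepatocyte transcripts. Orm1 stood at 80.3, 64.4 and 38.7 CPM in the 3 libraries at 22 °C and at 155, 181 and 157 CPM at 10 °C. Every cold library lay above every control, and the means went from 61.1 ± 20.9 to 164 ± 14.4 CPM (SD, n = 3 each), a log2 fold change of 1.43 (SE 0.231, edgeR adjusted p = 0.0066). Orm2 was much lower, at 0.780, 0.503 and 0.417 CPM at 22 °C and 1.93, 2.58 and 1.65 CPM at 10 °C, and changed in the same direction without overlap (log2 fold change 1.90, SE 0.345, adjusted p = 0.01). Their neighbour Orm3 rose from 12.3 ± 3.39 to 46.7 ± 6.28 CPM (log2 fold change 1.94, adjusted p = 0.00082).

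Hp fell in the same libraries. It stood at 728, 684 and 675 CPM at 22 °C and at 254, 261 and 254 CPM at 10 °C, with little spread on either side. The log2 fold change was -1.44 (SE 0.119, adjusted p = 0.00041). Lrg1 went from 47.8, 51.5 and 62.0 CPM to 22.7, 30.5 and 28.6 CPM, again without overlap (log2 fold change -0.98, SE 0.1495, adjusted p = 0.00497). Serpina3n, at 8.86 ± 1.68 and 8.09 ± 0.926 CPM, was not called (log2 fold change -0.12, SE 0.184). Of the 6 members tested 2 rose and 3 fell, and the share of all genes called in this comparison was 13.2%, or 8.73% with an adjusted p under 0.05. In bulk tissue, fewer cells of a type and less RNA per cell cannot be told apart. Skeletal muscle markers summed to 5649 to 8159 CPM at 22 °C and 2223 to 4682 CPM at 10 °C, with 4 of 5 called lower, and brown adipocyte markers to 7138 to 11865 and 13057 to 16847 CPM, with 3 of 5 called higher and 1 lower. Epididymis markers were low at both temperatures, 0.417 to 0.615 and 2.87 to 28.2 CPM, with 3 of 3 tested called higher. The part of any of these in these changes was not tested.

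Fgb in iBAT was lower at 10 °C together with other hepatocyte transcripts. It had 3.28, 4.03 and 5.30 CPM at 22 °C and 0 counts in every library at 10 °C, at least 70.9-fold lower against a floor of 3 counts over the group (adjusted p = 0.000734). Hepatocyte markers summed to 49.995 to 88.2 CPM at 22 °C and 5.66 to 6.23 CPM at 10 °C, with 4 of 5 tested called lower and Apoh and Ahsg at 0 in every cold library. Alb, the most abundant hepatocyte transcript, went from 46.4 ± 14.8 to 0.251 ± 0.220 CPM. At the Fgb to Alb ratio of 22 °C liver, this Alb would bring 4.71 CPM of Fgb to the controls, against 4.20 CPM seen. For Hp the same reckoning gives 2.67 CPM, against 696 CPM seen. The part of liver RNA in the fall of Fgb was not tested.

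Among the other positive acute phase genes of a fixed list of 26, 15 were tested in iBAT at 10 °C, with 1 higher (Orm3) and 6 lower, and a median log2 fold change of -0.36 against -0.02 over all genes. The fibrinogen alpha gene Fga, another hepatocyte transcript, went from 4.73 ± 1.28 to 0.0227 ± 0.0392 CPM (adjusted p = 0.000374). Of 6 negative acute phase genes tested, 4 were lower, led by Alb and Ahsg, and 1 was higher. Of 17 inducers, receptors and factors tested, 2 were lower: Cebpa, a transcription factor of fat and liver cells, from 840.0 ± 121 to 484 ± 72.7 CPM (adjusted p = 0.019), and Nfkbiz, a nuclear partner of NF-kappaB, from 27.4 ± 3.50 to 17.9 ± 0.946 CPM (adjusted p = 0.0191).

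In inguinal white fat at 10 °C, 3 members fell and none was called higher. Hp stood at 2446, 1445 and 1887 CPM at 22 °C and 726, 497 and 568 CPM at 10 °C. The groups were far apart, with a log2 fold change of -1.69 (SE 0.254, adjusted p = 0.0146). Lrg1 went from 242, 217 and 173 CPM to 104, 66.8 and 80.5 CPM (log2 fold change -1.33, SE 0.204, adjusted p = 0.0152). Serpina3n, which was not called in iBAT, fell, from 308, 244 and 181 CPM to 112, 78.2 and 86.6 CPM (log2 fold change -1.40, SE 0.230, adjusted p = 0.0185). None of the 3 overlapped between temperatures, and the share of all genes without overlap was not counted. The share of all genes called was 16.3%, and 6.62% with an adjusted p under 0.05.

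Orm1 in ingSAT stood at 142, 174 and 114 CPM at 22 °C and 218, 189 and 204 CPM at 10 °C. These libraries did not overlap, but the fold was under 1.5 and the gene was not called (log2 fold change 0.51, SE 0.170, adjusted p = 0.113); without 22 °C replicate 2 or without 10 °C replicate 2 it was called, at 0.67 and 0.59 on the log2 scale. Orm2 went from 1.88 ± 0.151 to 2.83 ± 1.85 CPM and, with single libraries left out, was called only without 10 °C replicate 1. Saa3 was under the filter, at 2.68, 0.284 and 0.462 CPM at 22 °C and a mean of 0.0763 CPM at 10 °C. The orosomucoid gene Orm3, named after its values were seen, was higher at 10 °C, at 8.70, 12.3 and 8.57 CPM against 23.5, 22.9 and 21.2 CPM (adjusted p = 0.0154).

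Of the other positive acute phase genes 15 were tested in ingSAT, with Orm3 higher and 6 lower, and a median log2 fold change of -0.91 against -0.01 over all genes. The smallest p-values belonged to Agt, angiotensinogen, from 41.2 ± 11.3 to 8.94 ± 1.89 CPM (adjusted p = 0.00732), and Lbp, the binder of bacterial lipopolysaccharide, from 48.5 ± 1.11 to 16.1 ± 4.78 CPM (adjusted p = 0.01). Among negative genes 1 of 4 tested was lower, transferrin (Trf), from 4351 ± 160.4 to 2302 ± 753 CPM (adjusted p = 0.0781). Of 21 inducers and receptors tested, 5 were lower and none higher, led by the interleukin 6 receptor Il6ra, from 62.0 ± 10.9 to 33.4 ± 4.32 CPM (adjusted p = 0.0283), and by Stat3, from 187 ± 40.5 to 112 ± 6.05 CPM (adjusted p = 0.0513). Cell markers moved in the same libraries. Adipocyte markers summed to 13414 to 16469 CPM at 22 °C and 8893 to 12933 CPM at 10 °C, with none of 5 called. Macrophage markers summed to 649 to 1331 and 477 to 748 CPM, with 3 of 5 called lower, and brown adipocyte markers to 83.6 to 136 and 1952 to 2551 CPM, with 5 of 5 called higher. Neutrophil markers summed to 49.6 to 110 and 36.0 to 51.6 CPM, with 1 of 6 tested called lower. Skeletal muscle markers summed to 1048 to 2681 and 24.9 to 1602 CPM, and B cell markers to 37.2 to 239 and 11.4 to 467 CPM, with none of 5 called in either list. The part of any of these in the fall of Hp, Lrg1 and Serpina3n was not tested.

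No member was called in perigonadal fat at 10 °C, where the share of all genes called was 7.94%, but 1 library, the tool and the scaling each decided that. Hp stood at 3311, 2513 and 1932 CPM at 22 °C and 667, 2021 and 642 CPM at 10 °C (log2 fold change -1.22, SE 0.590, edgeR adjusted p = 0.595). Lrg1 had 236, 203 and 268 CPM and 66.1, 196 and 113 CPM, without overlap. Serpina3n had 282, 250.1 and 182 CPM and 79.7, 276 and 97.6 CPM. In all 3 the cold replicate 2 lay close to the controls and replicates 1 and 3 lay low. Saa3 had 10.8, 8.18 and 6.52 CPM and 4.77, 5.84 and 0.990 CPM (log2 fold change -1.14, SE 0.629, edgeR adjusted p = 0.623). Replicates 1 and 3 are also the libraries with epididymis RNA, and their adipocyte marker sums were 7738 and 5687 CPM, against 20792 CPM in replicate 2 and 15497 to 21089 CPM in the controls. Without replicate 2, Hp (log2 fold change -1.99, adjusted p = 0.0231), Lrg1 (-1.41, adjusted p = 0.0475), Serpina3n (-1.43, adjusted p = 0.0345) and Saa3 (-1.57, adjusted p = 0.183) were all called lower. With every library kept, Hp and Lrg1 were also called lower by DESeq2 (-1.23 and -0.92, adjusted p = 0.254 and 0.354) and in edgeR with scaling by library size alone (-1.32 and -1.02, adjusted p = 0.57 for both). With replicate 2 as the only cold library, taken to vary as the controls do, no member was called. Without replicate 2 as with it, Orm1 (74.2 ± 35.8 and 88.1 ± 57.2 CPM) and Orm2 (1.09 ± 0.940 and 0.994 ± 0.498 CPM) were not called. Of 18 other positive genes tested, Fgg and Lcn2 were called higher and Il1rn lower, all with an adjusted p of 0.593. The interleukin 1 receptor Il1r1, of the list of inducers and receptors, was called lower with the same adjusted p. Lcn2, at 366, 5.21 and 1932 CPM in the 3 cold libraries, was high in the same replicates 1 and 3.

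The changes of the 3 fats were compared directly, as differences of log2 fold changes. Of 21 differences tested over the members none had an adjusted p under 0.05 in edgeR, and 5 had an unadjusted p under 0.05. The shares of all genes that differed after adjustment were 0.0691% for iBAT against ingSAT, 0.407% for iBAT against pgVAT and 0.159% for ingSAT against pgVAT. The Serpina3n change of iBAT exceeded that of ingSAT by 1.30 (SE 0.524, adjusted p = 0.387). Against pgVAT, the iBAT changes of Orm1 and Orm2 were higher by 1.21 (SE 0.550, adjusted p = 0.304) and 1.88 (SE 0.876, adjusted p = 0.313), and for Fgb, with 0 counts in cold iBAT, the difference had an adjusted p of 0.172. The ingSAT change of Saa3 differed from that of pgVAT by -2.56 (SE 1.20, adjusted p = 0.326). For Hp the difference between iBAT and ingSAT was 0.27 (SE 0.518, adjusted p = 0.873) and for Lrg1 0.37 (SE 0.421, adjusted p = 0.777).

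**Figure D3:**
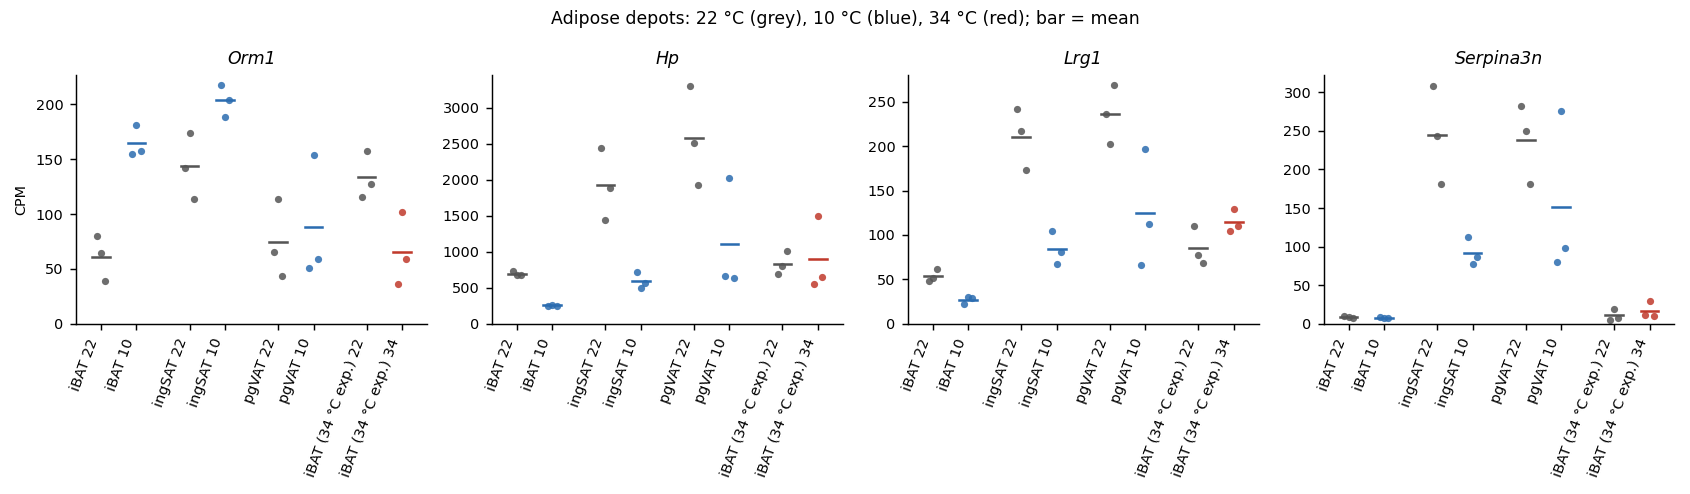
CPM of Orm1, Hp, Lrg1 and Serpina3n in each library of iBAT, ingSAT and pgVAT of the cold experiment and of iBAT of the warm one, with 22 °C in grey, 10 °C in blue, 34 °C in red and bars at the means. In iBAT Orm1 is higher at 10 °C and lower at 34 °C than in its controls, the 10 °C points of Hp lie below its controls, and in pgVAT the upper blue point of each panel is 10 °C replicate 2.

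Brown fat at 34 °C gave the opposite sign for the orosomucoids. Orm1 stood at 116, 157 and 128 CPM in the 22 °C libraries of the warm experiment and 35.9, 102 and 58.7 CPM at 34 °C. The groups did not overlap, and Orm1 was called lower (log2 fold change -1.03, SE 0.342, edgeR adjusted p = 0.0587), although not without 34 °C replicate 3 (log2 fold change -0.96, edgeR adjusted p = 0.147). It was the 1 call among 5 members tested, where the share of all genes called was 19.4%, or 15.6% after adjustment. Orm2 had 1.58, 1.81 and 1.23 and 0.542, 1.34 and 0.586 CPM and was not called (log2 fold change -0.90, SE 0.426), while Orm3 fell from 26.2 ± 4.43 to 9.13 ± 2.69 CPM (log2 fold change -1.52, adjusted p = 0.00542). Hp, at 697, 804 and 1011 CPM and 560.4, 1498 and 651 CPM, overlapped widely (log2 fold change 0.11, SE 0.363). Lrg1, at 110.2, 77.1 and 68.5 CPM and 105, 129 and 110.1 CPM, had a log2 fold change of 0.43 (SE 0.182, edgeR adjusted p = 0.114), with the fold under 1.5. Scaled by library size alone, with which the median of all genes moved by 0.27, Lrg1 was called at 0.69. Serpina3n, at 10.9 ± 7.41 and 17.1 ± 11.2 CPM, was not called, but single libraries decided several of these: without 22 °C replicate 1 Lrg1 was called (0.65), without 22 °C replicate 2 Serpina3n was (1.34), and without 34 °C replicate 2 Orm2 was (-1.46). The controls differed widely in skeletal muscle markers, at 2.80, 4232 and 8.08 CPM, and brown adipocyte markers summed to 9683 to 12704 CPM at 22 °C and 4640.0 to 6020.0 CPM at 34 °C, with 3 of 5 called lower. Their part was not tested.

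Of 13 other positive acute phase genes tested in iBAT at 34 °C, 3 were higher and 2 lower, with a median log2 fold change of 0.23 against 0.02 over all genes. Beside Orm3 the smallest p belonged to Steap4, a metalloreductase of inflamed fat, which rose from 116 ± 19.9 to 208 ± 22.2 CPM (adjusted p = 0.00687). The retinol carrier Rbp4 was the 1 of 3 negative genes called, falling from 144 ± 25.9 to 39.4 ± 10.8 CPM (adjusted p = 0.00205). Of 18 inducers and receptors tested, 2 were higher and 1 was lower. The 2 higher had an adjusted p under 0.05 and the 1 lower did not. The 2 were the receptor chains Lifr, from 44.3 ± 6.16 to 75.3 ± 9.85 CPM, and Osmr, from 14.2 ± 0.935 to 24.0 ± 5.199 CPM, both partners of gp130.

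Tested as a difference of changes, 4 members with counts on both sides differed in iBAT between 10 °C and 34 °C after adjustment, where 30.5% of all genes did. The cold change exceeded the warm one by 2.42 (SE 0.4659, adjusted p = 0.00279) for Orm1 and by 2.76 (SE 0.571, adjusted p = 0.00422) for Orm2. It was lower, at -1.58 (SE 0.416, adjusted p = 0.0141) for Hp and -1.44 (SE 0.245, adjusted p = 0.00144) for Lrg1. Fgb passed as well (adjusted p = 0.0228), but it had 1 count in all over the 6 iBAT libraries of the warm experiment, so no warm change could be measured. For Serpina3n the difference was -0.79 (SE 0.670, adjusted p = 0.389). Temperature cannot be told apart here from breeder, site, kit and length of exposure, which also differ between the experiments. In liver, ileum, brain and quadriceps 22 such differences were tested over the members, none with an adjusted p under 0.05 in edgeR and 1 with an unadjusted p under 0.05, where 0.0348%, 0.0%, 0.0% and 3.52% of all genes passed after adjustment. The 1 was Orm1 in quadriceps, higher at 10 °C than at 34 °C by 2.55 (SE 0.706, adjusted p = 0.0665). With 6 shared controls these cancel, so that this compares the 10 °C and the 34 °C libraries of the 2 experiments directly. Against the 3 controls of each column prefix, an alternative chosen after seeing the data, the difference was 3.82 (SE 0.876, adjusted p = 0.108).

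In bone marrow at 10 °C, 2 of 4 members tested fell, against 1.29% of all genes called and 0.926% after adjustment. Orm1 ranged from 16.5 to 24.7 CPM at 22 °C with a median of 22.9, and from 12.3 to 16.4 CPM at 10 °C with a median of 14.8. The 6 mice of each group did not overlap, and the log2 fold change was -0.60 (SE 0.0980, adjusted p = 0.00338). Lrg1 ranged from 107 to 168 CPM (median 145) at 22 °C and from 78.6 to 115 CPM (median 94.5) at 10 °C, with overlap (log2 fold change -0.59, SE 0.110, adjusted p = 0.00437). Hp went the same way, from 861 ± 119.8 to 655 ± 49.9 CPM, with an adjusted p of 0.00716 but a fold under 1.5 (log2 fold change -0.39, SE 0.0840). Both calls rest on the fold threshold, since scaling by library size alone gave -0.57 for each, just under it. The neutrophil markers, 10 genes of granulocytes and their precursors, summed to 43682 to 63527 CPM at 22 °C and 40342 to 42975 CPM at 10 °C, and none of 10 was called. Their part was not tested. No gene of the 3 acute phase lists was called, although Lcn2, a granule protein that binds iron carriers of bacteria, went from 3075 ± 453 to 2185 ± 77.1 CPM (adjusted p = 0.00354, fold under 1.5).

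In spleen at 10 °C 1 of 4 members tested fell, Hp, where 2.68% of all genes were called and 0.0779% after adjustment. Hp stood at 29.8, 43.3 and 35.6 CPM at 22 °C and 15.3, 10.6 and 11.5 CPM at 10 °C. The groups were apart, with a log2 fold change of -1.53 (SE 0.179, adjusted p = 0.0347). Lrg1, at 17.8, 24.6 and 20.3 CPM and 14.9, 14.4 and 18.5 CPM, had a log2 fold change of -0.40 (SE 0.149, edgeR adjusted p = 0.485), with the fold under 1.5. Orm2 (4.46 ± 0.671 and 4.31 ± 0.958 CPM) and Serpina3n (15.1 ± 2.35 and 15.1 ± 3.57 CPM) were not called, with log2 fold changes of -0.03 (SE 0.221) and 0.01 (SE 0.191). Neutrophil markers summed to 441 to 837 CPM at 22 °C and 145 to 168 CPM at 10 °C, with 10 of 10 called lower, and their part in the fall of Hp was not tested. Of 14 other positive genes tested 3 were lower, led by Lcn2, from 24.0 ± 7.48 to 3.77 ± 0.996 CPM (adjusted p = 0.0249), and Steap4, and of 22 inducers 1 was lower, Il1b, from 65.8 ± 12.6 to 35.0 ± 8.18 CPM (adjusted p = 0.421).

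**Figure D4:**
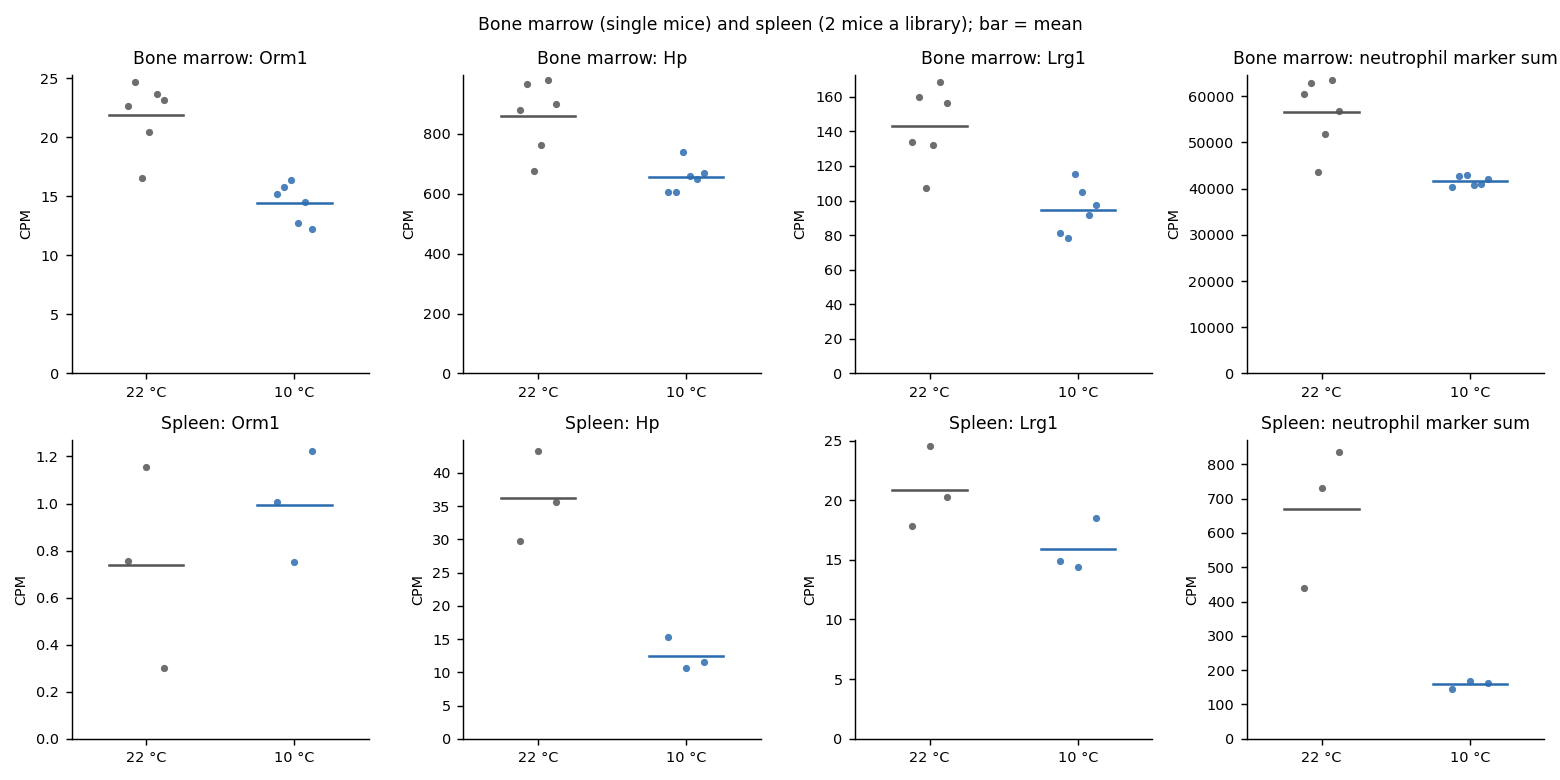
CPM of Orm1, Hp, Lrg1 and the sum of 10 neutrophil markers in each library of bone marrow (upper row, 6 mice per group) and spleen (lower row, 3 libraries per group) at 22 °C (grey) and 10 °C (blue), with bars at the means. In spleen both Hp and the marker sum of all 3 cold libraries lie below all controls, and in bone marrow Orm1 does not overlap between temperatures.

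In liver, the main source of these proteins, no member was called at 10 °C, where 3.28% of all genes were called. All 10 members were tested, with unadjusted p-values in edgeR from 0.148 to 0.856. The means of Orm1, Hp and Crp were close between groups. Orm1 had 558 ± 139.7 CPM at 22 °C and 573 ± 64.1 CPM at 10 °C (log2 fold change 0.04, SE 0.162). Hp had 2819 ± 1443 and 2936 ± 734 CPM (0.06, SE 0.315) and Crp 269.9 ± 29.4 and 244 ± 13.1 CPM (-0.15, SE 0.0945). The log2 fold changes of Serpina3n, Fgb, Lrg1, Orm2 and Saa3 were -0.12, 0.31, -0.35, 0.43 and 0.67. The signs for Orm1 and Hp turned when libraries were scaled by size alone. The serum amyloid A genes were the least even. Saa1 stood at 17.9, 288 and 25.8 CPM at 22 °C and 75.1, 22.5 and 121 CPM at 10 °C, and Saa2 at 3.56, 122 and 6.47 CPM and 16.8, 9.06 and 48.3 CPM. The 22 °C replicate 2 was far above the other controls, by up to 34.4 times the lowest library for Saa2 and 16.1 times for Saa1. Among the 22 °C livers the coefficient of variation was 154% for Saa2, 139% for Saa1 and 10.9% for Crp, against a median of 9.86% over all genes.

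That replicate was the highest of the 6 libraries for 7 of the 10 members, Orm1, Saa1, Saa2, Hp, Lrg1, Serpina3n and Fgb. It also had the highest Lcn2, at 1.21, 13.97 and 1.19 CPM in the controls, while Socs3, the feedback inhibitor that STAT3 induces, was at 5.84, 15.1 and 18.9 CPM there and was highest in replicate 3. Without replicate 2, 5 members were called higher at 10 °C, Saa1 (log2 fold change 1.75), Saa2 (2.31), Saa3 (1.27), Orm2 (1.17) and Fgb (0.60), with adjusted p-values from 0.162 to 0.245. The liver result at 10 °C for Saa1 and Saa2 thus changed sign with this 1 library, which is a pool of 2 mice. The other lists gave no call either, with 21 positive genes, 9 negative genes and 21 inducers tested. Hepatocyte markers summed to 66403 to 72319 CPM at 22 °C and 87768 to 91427 CPM at 10 °C, with none of 8 called.

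At 34 °C, 1 of 10 members was called in liver, where 3.38% of all genes were. Orm2 stood at 32.9, 45.7 and 18.2 CPM at 22 °C and 11.7, 16.2 and 20.8 CPM at 34 °C. A control library overlapped the warm ones, and the log2 fold change was -0.99 (SE 0.316, edgeR adjusted p = 0.281); without 22 °C replicate 2 it was -0.66 and not called. Lrg1 did not overlap, at 363, 356 and 445 CPM and 233, 235 and 318 CPM, but its fold was under 1.5 (log2 fold change -0.57, SE 0.144, edgeR adjusted p = 0.197). It was called at -0.64 with scaling by library size alone, and at -0.61, -0.63 and -0.73 without 22 °C replicate 1, 22 °C replicate 2 or 34 °C replicate 3. Orm1 had 783, 997 and 746 CPM and 538, 685 and 769.9 CPM (log2 fold change -0.34, SE 0.154). Saa1, at 38.9, 141 and 82.8 CPM and 27.2, 30.7 and 85.7 CPM, was called lower without 22 °C replicate 1 (log2 fold change -1.23) or without 34 °C replicate 3 (-1.60), and Saa2 without 22 °C replicate 1 (-0.76). Hp, Serpina3n, Fgb and Crp stayed within 0.02 to 0.08 on the log2 scale. The signs for Crp, Hp and Serpina3n turned with scaling by library size alone.

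Among 22 inducers and receptors tested in liver at 34 °C, Socs3 was higher, at 8.67, 11.2 and 9.02 CPM at 22 °C and 20.5, 26.7 and 30.3 CPM at 34 °C (log2 fold change 1.42, adjusted p = 0.0159), and Lifr was lower, from 405 ± 28.8 to 263 ± 78.2 CPM (adjusted p = 0.243). Of 25 other positive genes tested Il1rn was higher and Serpina3f lower, and of 9 negative genes the hormone carriers Serpina6 and Serpina7 were higher, from 303 ± 96.8 to 509 ± 87.9 CPM and 25.7 ± 14.6 to 61.0 ± 18.9 CPM, with adjusted p-values of 0.19, 0.249, 0.248 and 0.248 in that order. Hepatocyte markers summed to 88314 to 103577 CPM at 22 °C and 129504 to 136250.0 CPM at 34 °C, with 1 of 8 called lower.

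**Figure D5:**
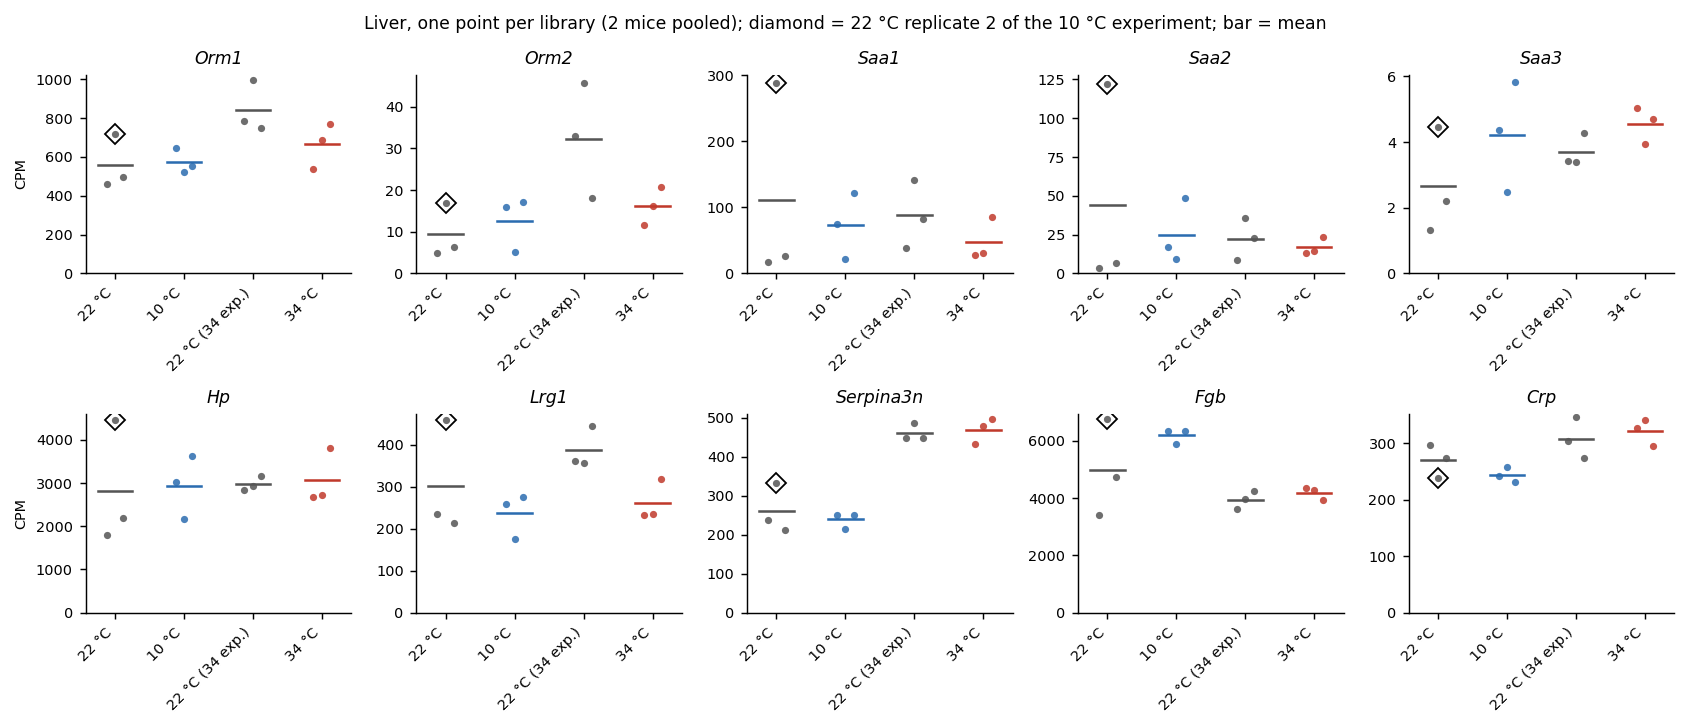
CPM of the 10 genes in each liver library, for the cold experiment (22 °C and 10 °C) and the warm experiment (22 °C, marked 34 exp., and 34 °C), with bars at the means and a diamond on 22 °C replicate 2 of the cold experiment. The diamond is the highest of the first 6 points for 7 genes, and for Saa1 and Saa2 the mean of the controls lies above the other 2.

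In quadriceps at 10 °C, Orm1 was the 1 of 4 members called, where 3.35% of all genes were. It stood at 1.51, 2.49, 0.648, 5.10, 3.74 and 2.29 CPM in the 6 controls and at 10.503, 12.0 and 3.31 CPM at 10 °C. The lowest cold library lay within the controls, and the log2 fold change was 1.71 (SE 0.520, edgeR adjusted p = 0.222). Neutrophil markers summed to 1.78 to 6.97 CPM in the controls and to 16.1, 54.0 and 3.52 CPM at 10 °C, high in the same first 2 libraries as Orm1, with 4 of 4 tested called higher, and the first of these libraries also held epididymis markers at 125 CPM. Fat markers were higher in the same pair of libraries: adipocyte markers summed to 489 to 763 CPM in the controls and to 940.5, 906 and 632 CPM at 10 °C, with 2 of 5 called higher, and brown adipocyte markers to 262 to 372 CPM and to 478, 447 and 294 CPM, with 3 of 5 called higher. The part of any of these was not tested. Hp (24.2 ± 10.9 and 29.5 ± 15.2 CPM), Lrg1 and Serpina3n were not called. Of the lists, Lcn2 of the positive genes and Trf and Rbp4 of the negative genes were called higher, with adjusted p-values from 0.374 to 0.41. At 34 °C none of 4 members was called and 1.25% of all genes were. Orm1 had 0.853, 0.713 and 2.71 CPM at 34 °C (log2 fold change -0.84, SE 0.596), and against the 3 controls whose column names share its prefix it was called lower (-1.34). Without 34 °C replicate 3 Orm1 was also called lower (-1.71), and without 34 °C replicate 1 Hp was (-1.06). No list gene was called at 34 °C.

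In ileum at 10 °C, Orm1 was the 1 of 6 members called, where 2.71% of all genes were. It was near the limit of detection, at 0.700, 0 and 0.381 CPM at 22 °C and 3.03, 1.33 and 0.501 CPM at 10 °C (log2 fold change 2.23, SE 0.890, edgeR adjusted p = 0.269). The groups overlapped, and the call was lost without 22 °C replicate 2 or 3 or without 10 °C replicate 2. Saa1, the abundant acute phase gene of the gut, stood at 62.3, 99.2 and 189.5 CPM and 119.8, 5.73 and 143 CPM with overlap (log2 fold change -0.39, SE 0.876). The cold replicate 2, lowest for Saa1, was also lowest for Saa3, at 3.89, 0.784 and 3.07 CPM. Of 4 negative genes tested 3 were called higher, led by the apolipoprotein Apoa1, which enterocytes also make, from 2557 ± 101 to 4482 ± 571 CPM (adjusted p = 0.0608), and by Rbp4. Enterocyte markers summed to 11896 to 13235 CPM at 22 °C and 16792 to 16988 CPM at 10 °C, with 2 of 5 called higher. Adipocyte markers, of a cell type in which Orm1 is also transcribed, summed to 81.5, 36.1 and 71.5 CPM and to 169, 123 and 64.6 CPM, in the cold in the order of the Orm1 values, with 1 of 5 called higher, and their part was not tested.

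At 34 °C, Serpina3n was the 1 of 6 members called in ileum, where 2.83% of all genes were. It stood at 9.27, 3.18 and 12.2 CPM at 22 °C and 3.75, 2.99 and 2.19 CPM at 34 °C, with overlap (log2 fold change -1.47, SE 0.483, edgeR adjusted p = 0.594), and the call was lost without 22 °C replicate 1 or 3 or without 34 °C replicate 3. Saa1 had 53.3, 10.51 and 87.9 CPM and 95.3, 20.1 and 83.5 CPM (log2 fold change 0.39, SE 0.802). In both experiments the spread of Saa1 within a group of ileum libraries was wider than the difference between groups. Of 8 other positive genes tested, Lbp and Serpina3g were called lower, both with an adjusted p of 0.594.

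In the nervous system the members were low except for Serpina3n, which was not called in any of its 4 comparisons there. In spinal cord it had 63.3 ± 4.82 CPM at 22 °C and 61.9 ± 3.67 CPM at 10 °C (SD, n = 5 each), with a log2 fold change of -0.03 and the smallest SE of any member, 0.0606. In hypothalamus it had 31.1, 31.3 and 29.1 CPM and 26.1, 29.2 and 28.4 CPM, in brain at 10 °C 17.6 ± 0.0397 and 15.97 ± 1.27 CPM and in brain at 34 °C 19.9 ± 0.826 and 19.6 ± 0.341 CPM. Of the members tested, none of 4 was called in spinal cord and none of 2 in brain at 10 °C, where 0.271% and 0.801% of all genes were called, nor the 1 tested in brain at 34 °C, where 0.193% were.

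In hypothalamus Hp was the 1 of 3 members called, where 0.578% of all genes were. It stood at 0.458, 0.5677 and 0.757 CPM at 22 °C and 0.717, 1.01 and 4.08 CPM at 10 °C (log2 fold change 1.62, SE 0.588, edgeR adjusted p = 0.759). The high library is the one with hepatocyte RNA, in which Fgb reached 10.3 CPM. Without it Hp lay under the filter on low values and was not tested, and no other member or list gene was called. Fgb itself, at a log2 fold change of 2.20 (SE 1.05), was not called, but it was without 22 °C replicate 3 (4.77), 10 °C replicate 1 (2.67) or 10 °C replicate 2 (2.78), fits that all keep that library, and with the exact test (2.39) or no filter (2.21). The list genes called higher there, none with an adjusted p under 0.05, were liver transcripts, such as Serpina3k, Hpx, Ahsg and Alb. In brain at 10 °C Serpina3k and Alb were also called higher (edgeR adjusted p = 0.172 and 0.449). The part of liver RNA in the calls of hypothalamus and brain was not tested. In spinal cord and in brain at 34 °C no list gene was called.

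Some members were at or near 0 in whole tissues. Crp and Saa2 passed the filter in liver only, in both experiments. Orm2 had 0 counts in the bone marrow controls and in all brain controls used, Fgb in bone marrow at both temperatures and in the ileum controls of the cold experiment, and Saa2 in ingSAT at both temperatures. Serpina3n was the 1 member tested in all 16 comparisons. Hp and Lrg1 were tested in 14 each, Orm1 in 11, Orm2 in 7, Saa3 and Fgb in 5 each and Saa1 in 4.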

How the data were processed

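Gene counts of 106 bulk RNA-seq libraries in 31 groups were analysed as deposited, in 4 tables. Per the labels and the study's methods, the authors aligned reads to mm10 with STAR and made the deposited raw counts per gene with HTSeq; the submitters' processing notes name STAR 2.5.3a, HTSeq 0.6p1 and Picard 1.141, and the methods name other versions of the first 2. Every label's treatment text gives 34 °C, so the temperature of each group was taken from its title and treatment field and from the methods.

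Genes were matched by symbol, with the Ensembl identifiers of the 8-tissue table paired to symbols for all but 64 of 21647. Groups came from the labels. A brain library with liver RNA (22 °C, replicate 2) was left out. No column was unmapped, and no 2 columns were identical. Where labels do not name separate animals, p-values measure the spread between these libraries. Libraries of the cold experiment other than bone marrow, spinal cord and quadriceps were made with an unstranded kit at one site, the rest at another site with a stranded kit, which for cold quadriceps the labels name and the methods do not.

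Each exposed group was tested against its own 22 °C columns with edgeR 4.0.16 in R 4.3.3 (quasi-likelihood F-test, TMM, mean log2 CPM above 0). A call needed p of at most 0.05 and a fold above 1.5, with Benjamini-Hochberg adjustment over all genes beside it. Differences of changes were interaction terms. Replicates were compared by the correlation of same-numbered libraries; in no tissue was every correlation over 0.1, so the numbers were not taken as pairs. Depth limits low genes: counting error alone allows 3 counts where 0 were seen. The code was tested on simulated data. Positions came from GENCODE M21 and sequences from RefSeq, both GRCm38, and likeness was Pearson's r on log2(mean CPM + 1) among genes reaching 1 CPM. Alternatives were the exact test, DESeq2 1.42.0, library size only, RLE, 2 other filters, leaving out libraries and a replicate block.

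The members and lists (26 positive, 9 negative and 27 inducer genes, and cell markers) were chosen with earlier results of these data known. Named were the 10 members, of each list the 2 called genes with the smallest p in a comparison, and for each member the 3 most similar genes. Other genes named were chosen after their values were seen. Some items of these lists are not reported here.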

Additional observations from a re-analysis of the deposited data

Results flagged for a closer look

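Single libraries lay far from the rest of their group in 12 of the 37 cases examined. A case was a member in a group of 4 to 10 libraries, and cases share libraries. Some lie near 0 counts, so 12 of 37 is not set against a rate by chance. Of the 12, 8 belong to the pair of spinal cord libraries with hepatocyte RNA. In 22 °C library 1 Fgb stood at 13.4, Hp at 7.47, Orm1 at 3.73 and Crp at 1.39 CPM, and in 10 °C library 3 Fgb stood at 4.39, Hp at 6.39, Orm1 at 1.12 and Crp at 0.835 CPM. Fgb was at 0 in every other spinal cord library. The remaining 4 were Saa1 at 0.120 CPM in spinal cord 10 °C library 2, Fgb at 0.381 CPM in a quadriceps control, Orm2 at 0.179 CPM in bone marrow 10 °C library 4 and Serpina3n at 2.36 CPM in bone marrow 10 °C library 2, the last and the first of them lower than the rest of their group.

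In iBAT the changes at 10 °C and at 34 °C differed in a direct test for 5 members, of which Fgb had no measurable warm change, with 1 count in all over the 6 libraries of the warm experiment. The log2 change at 10 °C minus that at 34 °C was 2.42 for Orm1, 2.76 for Orm2, -1.58 for Hp, -1.44 for Lrg1 and, as a fitted value only, -11.29 for Fgb (edgeR adjusted p from 0.00144 to 0.0228). The experiments also differ in breeder, site, kit and length of exposure, which cannot be told apart from temperature here.

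The brain library that was left out held all 10 members above the other brain controls. Fgb stood at 3186, Hp at 1009, Orm1 at 318, Crp at 163, Serpina3n at 119.8, Lrg1 at 73.7, Saa1 at 12.8, Saa2 at 5.29, Orm2 at 3.001 and Saa3 at 1.34 CPM. In the other brain controls of the cold experiment the highest were 17.9 CPM of Serpina3n and 1.10 CPM of Lrg1.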

How the results depend on the processing

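The 14 calls of members at 10 °C became 15 with the exact test, 16 with DESeq2 (Hp and Lrg1 in pgVAT added), 14 with library size only (Orm1 and Lrg1 in bone marrow lost, Hp and Lrg1 in pgVAT gained), 14 with RLE or filterByExpr, 18 without the filter and 11 with adjusted p. Leaving out single libraries in turn (87 fits in all) gave 13 to 19. These fits did not cover every library. None left out a bone marrow library, so the calls in bone marrow were not tested in this way. With the replicate block there were 15, the added one Fgb in hypothalamus (log2 fold change 2.40, edgeR adjusted p = 0.0052). The replicate numbers were not taken as pairs, so this block has no basis in the labels. Library 3 was the highest for Fgb in both hypothalamus groups, at 1.89 CPM at 22 °C and 10.3 CPM at 10 °C. With all 3 brain controls there were 18, the added ones Crp, Fgb, Orm1 and Hp in brain. The 3 calls at 34 °C became 5 with library size only and 0 with adjusted p, stayed at 3 with the exact test, DESeq2, RLE, and both other filters, and ranged from 2 to 6 with a library left out. Against quadriceps controls of the same column prefix, an alternative chosen after seeing the data, there were 14 and 4, and pgVAT without the 2 libraries with epididymis RNA and spinal cord without the 2 with hepatocyte RNA, also chosen after seeing the data, left 14. The differences gave 0 between fats and 5 between temperatures, Fgb in iBAT included, under every setting run. No called member changed sign. Quadriceps controls by title were not run, since the count columns carry no such numbers. With library size only, the higher and lower calls over all genes split as 486 and 1494 in iBAT at 10 °C (TMM 768 and 926), 159 and 252 in Ileum at 10 °C (TMM 203 and 178), 55 and 399 in Liver at 10 °C (TMM 89 and 306), 498 and 728 in pgVAT at 10 °C (TMM 663 and 516), 575 and 44 in Quadriceps at 10 °C (TMM 320 and 76), 3090 and 407 in iBAT at 34 °C (TMM 1505 and 887) and 135 and 235 in Liver at 34 °C (TMM 198 and 180), and the median log2 change over all genes shifted by 0.27 in iBAT at 34 °C, -0.16 in iBAT at 10 °C and 0.15 in quadriceps at 10 °C. Depth limits what can be said of members below 1 CPM, where a value can rest on few counts.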
